A study of Mus musculus with 20 samples.

Results

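The 10 genes described here are MHC class I genes of mouse chromosome 17: H2-K1, H2-D1, H2-Q1, H2-Q2, H2-Q4, H2-Q7, H2-Q10, H2-T23, H2-Bl and Gm8909. They were given as a list of symbols, chosen by their liver read counts over the 4 groups, and 10 of 10 were matched to a gene ID among the 55573 in the count files. All 10 passed the filter on low counts. Which comparison chose the list is not stated. Differences between the lines were taken as used in the choice, so Titan against control values of these genes are given as a description, without a test.

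The samples are livers of 20 male mice, 5 in each of 4 groups. Titan mice (line DU6) come from a long-term selection for high body mass, and control mice (line FZTDU) from an unselected stock of the same origin. Neither line is inbred. Both were sampled at 11 weeks and at 19–21 weeks of age and carried no engineered allele. At the institute that bred the lines, mice had standard breeding feed without restriction and specific pathogen-free housing. Other mice of the study were kept on standard chow at a mouse clinic. The site of the mice sequenced here is not stated in the sources used. Bulk RNA was depleted of ribosomal RNA and sequenced with strand kept, and 6794935 to 23295028 reads per mouse fell on genes (median 12547300). Reads that could be placed at several positions of the GRCm38 genome are absent from the counts. In 19–21-week-old Titan mice, mice 1 and 2 stood apart with the highest summed reads of a list of MHC class II genes, Cd74 and Ciita. These sums were 153 and 136 CPM (reads per 1000000 reads of the scaled library). For some results, values without these 2 mice are given as well, where stated.

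MHC class I molecules pair a heavy chain with beta-2 microglobulin (B2m) and show peptides from inside the cell to CD8 T cells and natural killer cells. In the mouse, H2-K1 and H2-D1 encode the classical, highly variable heavy chains found on nearly every nucleated cell. The Q and T genes further along the complex are non-classical. H2-Q7 encodes a Qa-2 antigen that can be anchored to the membrane by a lipid, H2-Q10 encodes a secreted chain made mainly by the liver, and H2-T23 encodes the Qa-1 antigen, a ligand of the CD94/NKG2A receptor. H2-Bl is annotated as a polymorphic pseudogene and Gm8909 as a protein-coding gene.

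In classical class I promoters, an upstream block holds a kappaB site next to an interferon-stimulated response element (ISRE). The RefSeq promoter table for GRCm38.p6 had entries of 250 bases before to 50 bases after the start site for 8 of the 10 genes. H2-Q1 and H2-Bl have none. The following 61-base stretches are shown because they let the block of the classical genes be set beside that of H2-Q10, H2-Q4 and H2-Q7. They are reference sequence, not sequence of Titan or control mice. Capitals mark the bases aligned with the kappaB letters of H2-K1 (GGGGATTCCCC) and the ISRE-like letters (AGTTTCACTTC), 5′ to 3′ on the strand of the gene.
H2-K1, chr17:34000419-34000479, minus strand: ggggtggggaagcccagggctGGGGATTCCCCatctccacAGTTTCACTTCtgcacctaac
H2-D1, chr17:35262902-35262962, plus strand: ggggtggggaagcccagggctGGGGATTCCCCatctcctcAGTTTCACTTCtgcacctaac
H2-Q4, chr17:35379422-35379482, plus strand: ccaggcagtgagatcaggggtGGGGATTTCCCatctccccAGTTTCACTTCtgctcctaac
H2-Q7, chr17:35439000-35439060, plus strand: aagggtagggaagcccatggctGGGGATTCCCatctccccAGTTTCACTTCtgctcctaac
H2-Q10, chr17:35469892-35469952, plus strand: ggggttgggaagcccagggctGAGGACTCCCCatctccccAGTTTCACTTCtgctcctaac

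Both runs of letters were read from the H2-K1 promoter, and a stretch is shown only where the ISRE-like letters were found. All 5 stretches therefore hold the ISRE-like letters by construction, and H2-K1 holds the kappaB letters by construction. Of the other stretches shown, only that of H2-D1 held the complete kappaB letters. Counted from 1 at the 5′ end of the 11 letters, with the H2-K1 base first, H2-Q4 differed by C8T and H2-Q10 by G2A and T6C. H2-Q7 held the first 10 of the 11 letters, and its stretch had 1 base fewer between the start of these letters and the ISRE-like letters, so no substitution is given for it. In H2-Q2, H2-T23 and Gm8909 neither run of letters was present in the window. Searched on both strands, 10 of 32851 promoter entries (0.0304%) held the kappaB letters, 17 (0.0517%) held the ISRE-like letters and 4 (0.0122%) held both. The entries with both belonged to H2-K1, H2-D1 and H2-Q6. The motifs do not overlap each other, and a match is a description of letters only.

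The classical genes stood higher in Titan livers. At 11 weeks, H2-D1 read 154, 151, 169, 190 and 165 CPM in the 5 control mice and 389, 349, 349, 342.5 and 365 CPM in the 5 Titan mice. At 19–21 weeks it read 135, 264, 118, 382 and 203 CPM in controls and 456, 423, 365.5, 395 and 419 CPM in Titan mice. The groups did not overlap at 11 weeks, and at 19–21 weeks control mouse 4 alone reached into the Titan range. The fitted log2 fold change (Titan against control) was 1.11 (SE 0.21) at 11 weeks and 0.90 (SE 0.21) at 19–21 weeks, with 5 mice per group.

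H2-K1 differed less. Its level was 256, 206, 205, 289 and 439 CPM in 11-week-old controls and 399, 294, 302, 335 and 353 CPM in 11-week-old Titan mice. In the older groups it was 181, 270.5, 167, 206 and 313.5 CPM in controls and 390, 351, 349, 317 and 361 CPM in Titan mice. The younger groups overlapped, since control mouse 5 was the highest of the 10, and the older groups did not. The log2 fold change was 0.27 (SE 0.19) and 0.64 (SE 0.19). The first value was 0.49 without control mouse 5 and 0.18 without control mouse 2 or 3. H2-K1 supplied 57.0% ± 9.60 (SD, n = 10) of the reads of the classical pair in controls and 47.3% ± 2.10 (SD, n = 10) in Titan mice.

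H2-Q10 went the other way and was the most abundant of the 10 genes in control livers. It read 1203, 1875, 1269, 2196 and 2093 CPM in 11-week-old controls against 764, 686, 676, 628 and 665 CPM in Titan mice of that age. At 19–21 weeks it read 1760, 1037, 2099, 1538 and 1321 CPM in controls against 458.5, 719, 729, 529 and 735 CPM in Titan mice. Every Titan mouse was below every control mouse at both ages. The log2 fold change was -1.34 (SE 0.19) at 11 weeks and -1.29 (SE 0.19) at 19–21 weeks. Without Titan mice 1 and 2 the latter was -1.22.

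The other Q genes did not share one direction. H2-Q1, a low gene next to H2-D1, read 1.60, 0.50, 0.45, 1.10 and 0.97 CPM in 11-week-old controls and 4.34, 3.20, 3.21, 4.67 and 7.48 CPM in Titan mice. In the older groups the ranges were 0.22 to 2.44 CPM in controls and 2.67 to 4.30 CPM in Titan mice. Neither age showed overlap, with log2 fold changes of 2.35 (SE 0.41) and 1.56 (SE 0.42). These values rest on 4 to 27 reads per control mouse and 22 to 178 per Titan mouse.

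H2-Q4 averaged 15.6 ± 2.96 CPM in the younger control mice against 34.2 ± 3.53 CPM in the younger Titan mice (SD, n = 5 each), and 21.4 ± 8.36 against 39.6 ± 7.19 CPM at 19–21 weeks. Its log2 fold changes were 1.13 (SE 0.21) and 0.91 (SE 0.21), without overlap at 11 weeks only. H2-Q4 lies across from Gm11131 on the opposite strand, and with counts over both strands the 11-week value was 0.88. H2-Q2 averaged 7.74 ± 0.82 against 12.6 ± 1.59 CPM at 11 weeks (log2 fold change 0.70, SE 0.22, no overlap). At 19–21 weeks it averaged 8.02 ± 4.18 against 13.96 ± 0.86 CPM (0.79, SE 0.22), and control mouse 5 fell among the Titan mice.

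H2-Q7 showed the widest spread between mice of one group. In 11-week-old controls it read 0.59, 3.75, 0.35, 6.16 and 6.35 CPM, and in older controls 7.63, 4.96, 6.96, 3.95 and 0.67 CPM. So 3 of the 10 control mice lay under 1 CPM and the other 7 at 3.75 CPM or more, while Titan mice ranged from 1.24 to 5.84 CPM. The groups overlapped at both ages, with log2 fold changes of -0.81 (SE 0.60) and -0.42 (SE 0.58). The first was -0.46 without control mouse 5 and -0.47 without control mouse 4. The second ran from -0.71 without control mouse 5 to -0.20 without control mouse 1 and -0.24 without control mouse 3. Over the other alternatives the second ran from -0.64 to -0.39.

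The T genes were split as well. H2-T23 read 29.3, 40.8, 24.6, 32.7 and 13.6 CPM in 11-week-old controls and 11.7, 6.88, 12.6, 12.8 and 9.75 CPM in Titan mice. At 19–21 weeks controls read 26.8, 12.4, 28.5, 21.2 and 56.0 CPM and Titan mice 12.8, 10.9, 11.1, 11.4 and 11.1 CPM. Titan mice were below all controls at 11 weeks, and at 19–21 weeks control mouse 2 fell between them. The log2 fold change was -1.40 (SE 0.30) and -1.35 (SE 0.31), and the latter was -0.97 without control mouse 5.

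H2-Bl and Gm8909, which lie beyond H2-T23, were higher in every Titan mouse than in every control mouse of the same age. H2-Bl read 3.96, 1.17, 1.83, 1.95 and 0.83 CPM in 11-week-old controls against 7.30, 6.41, 6.13, 5.46 and 6.43 CPM in Titan mice. Its log2 fold change was 1.72 (SE 0.32), and 1.84 (SE 0.33) at 19–21 weeks. Gm8909 read 9.20, 5.83, 4.90, 4.57 and 6.28 CPM in 11-week-old controls against 22.0, 15, 18.8, 14.3 and 20.04 CPM in Titan mice. Its log2 fold change was 1.57 (SE 0.35), and 1.60 (SE 0.35) at 19–21 weeks.

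**Figure D1:**
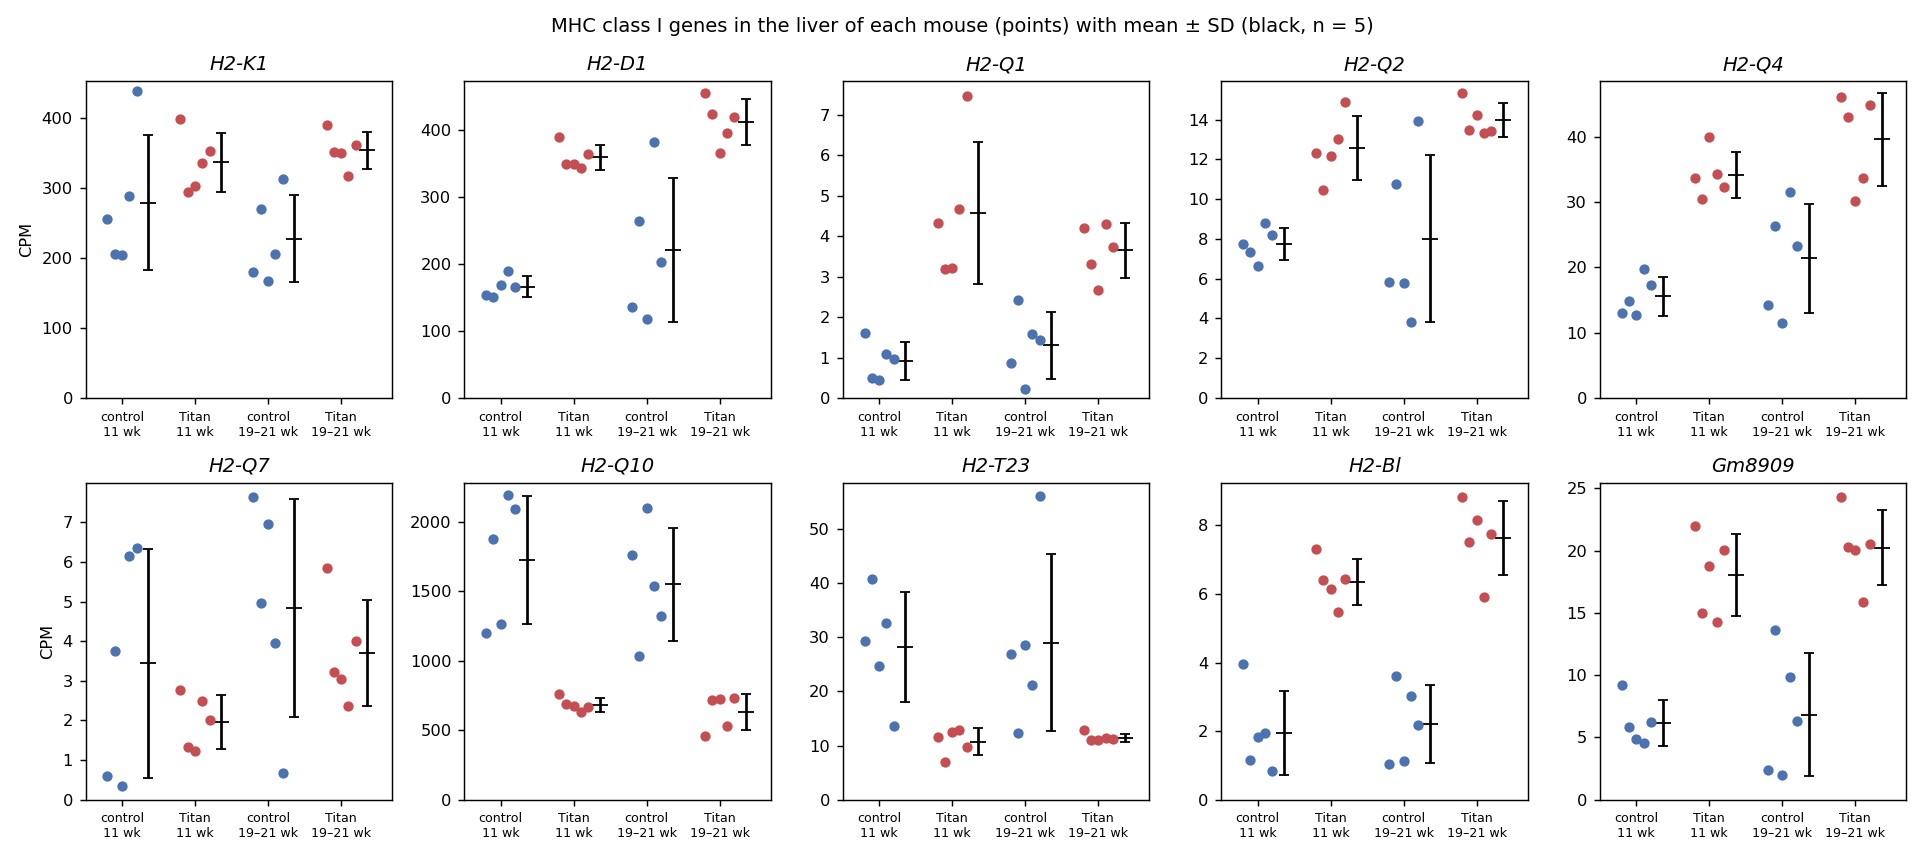
CPM of the 10 class I genes in each mouse (points, blue for control and red for Titan), with the mean and SD of 5 mice in black and a linear axis from 0 in each panel. H2-Q10 lay between 1037 and 2196 CPM in control mice and between 458.5 and 764 CPM in Titan mice, while H2-Bl and Gm8909 were higher in every Titan mouse than in every control mouse of the same age.

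Of the 10 genes, 6 stood above and 2 below the control range in Titan mice at 11 weeks, and 4 above and 1 below it at 19–21 weeks. Of all 13783 tested genes, 5.84% were higher and 6.08% lower without overlap at 11 weeks, and 3.62% and 4% at 19–21 weeks. Nothing is read from these shares, since differences between the lines were taken as having chosen the genes. The median log2 fold change was 0.91 and 0.85, beside -0.02 and 0.01 over all tested genes. The 2 ages are separate mice, and 7 genes had a log2 fold change above 0 and 3 below 0 at each.

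Levels were compared between genes per length, as CPM per kb of exon. In controls the order began with H2-Q10 at 377 ± 96.9, followed by H2-K1 at 86.2 ± 27.6 and H2-D1 at 74.9 ± 30.2 CPM per kb (SD, n = 10). The classical pair lay within their spread of each other there. In Titan mice H2-Q10 stood at 152 ± 22.3, H2-D1 at 149 ± 14.7 and H2-K1 at 117.5 ± 11.7 CPM per kb, so that the first pair no longer differed beyond its spread.

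Among the lower genes, controls ran from H2-T23 at 9.90 ± 4.44 CPM per kb to H2-Q1 at 0.39 ± 0.23 CPM per kb. H2-T23 was the highest of these in controls and the fifth in Titan mice at 3.84 ± 0.61 CPM per kb. It stood there beside H2-Bl at 4.15 ± 0.64 CPM per kb, within the spread of both. H2-Q4 led the lower genes in Titan mice at 14.2 ± 2.33 CPM per kb, followed by Gm8909 at 12.4 ± 2.07 CPM per kb, again within their spread.

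The classical pair and H2-Q10 together supplied most reads of the 10 genes, in different shares in the 2 lines. H2-Q10 took 75.3% ± 7.23 of the reads of the 10 genes in control mice (63 to 86%) and 44.3% ± 4.90 in Titan mice (32.2 to 48.9%; SD, n = 10 each). H2-K1 and H2-D1 took 21.4% ± 6.47 in controls and 49.3% ± 4.20 in Titan mice. The log2 ratio of H2-Q10 to the classical pair ran from 0.96 to 2.88 in controls and from -0.88 to 0.09 in Titan mice. All of the 10 genes summed to 2154 ± 416 CPM in controls and 1484 ± 109 CPM in Titan mice.

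**Figure D2:**
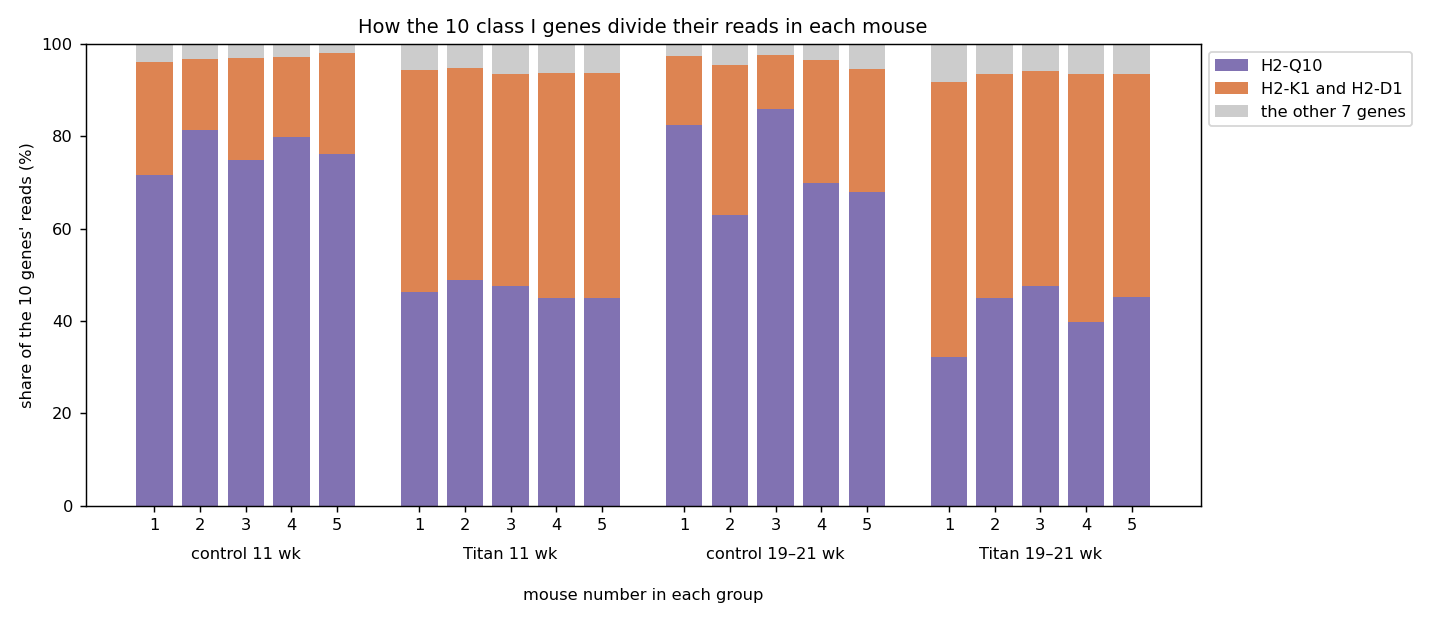
Share (%) of the reads of the 10 class I genes that fell on H2-Q10, on the classical pair H2-K1 and H2-D1, and on the other 7 genes, with one bar per mouse. H2-Q10 took 63 to 86% in control mice and 32.2 to 48.9% in Titan mice.

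With the counts summed before the fit, the classical pair had a log2 fold change of 0.65 (SE 0.17) at 11 weeks and 0.77 (SE 0.17) at 19–21 weeks. The 5 Q genes summed to -1.25 (SE 0.18) and -1.19 (SE 0.18), a sum dominated by H2-Q10. The sum of H2-T23, H2-Bl and Gm8909 stood at -0.04 (SE 0.21) and 0.05 (SE 0.21), in which genes of opposite sign were added. A division into classical and non-classical genes therefore did not separate the directions, since H2-Q1, H2-Q2, H2-Q4, H2-Bl and Gm8909 had the sign of the classical pair.

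In their order on the chromosome, the 10 genes had signs as follows. H2-K1 and, 1.27 Mb away, H2-D1, H2-Q1, H2-Q2 and H2-Q4 had positive values. H2-Q7 and H2-Q10 (1.44 and 1.47 Mb from H2-K1) had negative values, as did H2-T23 at 2.03 Mb. H2-Bl and Gm8909 at 2.08 and 2.17 Mb were again positive. Genes outside the 10 that lie between H2-K1 and H2-D1 had both signs, such as H2-Aa (1.14), C2 (-1.03) and C4a (-2.50) at 11 weeks.

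The other class I genes of chromosome 17 were not part of the list and were tested. Of 24 such genes, 6 passed the filter on low counts, and 3 of these fell and 0 rose in Titan mice at 11 weeks (edgeR quasi-likelihood test, Benjamini-Hochberg adjusted p under 0.05). In the older mice 2 fell and 0 rose. Over all tested genes, 14.9% passed the threshold at 11 weeks (7.23% rose and 7.69% fell) and 9.12% at 19–21 weeks (4.24% rose and 4.88% fell). H2-Q6, which lies between H2-Q4 and H2-Q7, fell from 6.93 ± 1.61 to 2.69 ± 0.72 CPM at 11 weeks (SD, n = 5; log2 fold change -1.39, adjusted p = 0.000367 in edgeR). In older mice its log2 fold change was -0.99 (adjusted p = 0.0118 in edgeR). H2-T22, next to H2-T23, fell at both ages (log2 fold changes -1.24 and -1.45, adjusted p = 0.0074 and 0.00597 in edgeR).

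H2-T24 fell at 11 weeks (log2 fold change -0.96, adjusted p = 0.0186 in edgeR) and had a log2 fold change of -0.78 at 19–21 weeks (adjusted p = 0.0867). H2-T10, between H2-Bl and Gm8909, had log2 fold changes of 0.63 and 0.92 that did not pass (adjusted p = 0.235 and 0.103 in edgeR). H2-K2, next to H2-K1, had values of 0.24 and 0.79 (adjusted p = 0.743 and 0.239), and H2-M3, which presents formylated peptides, -0.19 and 0.20 (adjusted p = 0.662 and 0.67). The call of H2-T24 was lost without control mouse 3 or Titan mouse 2 and with counts over both strands. Without control mouse 2 of the older group, 5 of these 6 passed at 19–21 weeks.

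**Figure D3:**
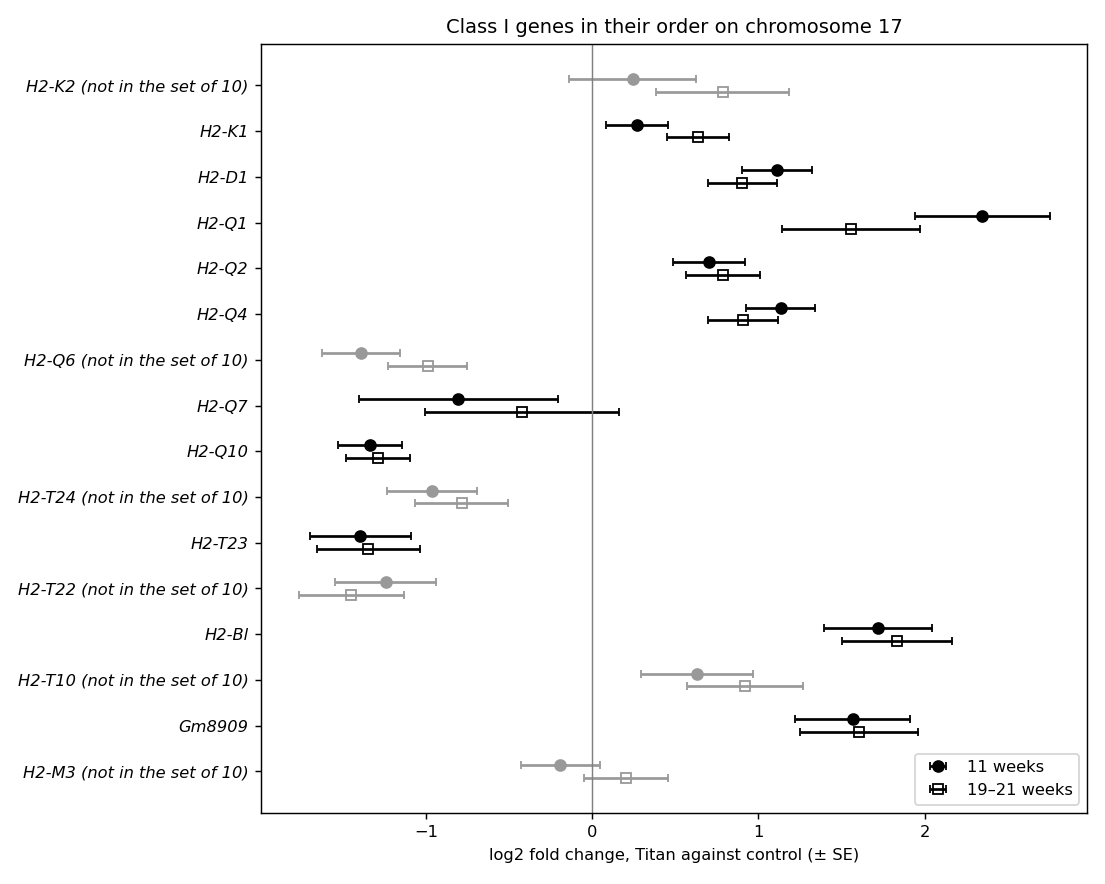
Log2 fold change (Titan against control, ± SE, 5 mice per group) of the 16 tested class I genes at 11 weeks (filled circles) and 19–21 weeks (open squares), in their order on chromosome 17, with the genes outside the set of 10 in grey. Values ran from 2.35 in H2-Q1 to -1.40 in H2-T23 at 11 weeks, and H2-Q6, at -1.39, lies between H2-Q4 (1.13) and H2-Q7 (-0.81).

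Other genes of the same stretch of chromosome 17, from H2-K1 to Mog (33996017 to 37010743), were tested as a list, and whether their share of calls differs from that of all genes was not tested. Of 250 genes, 90 passed the filter, of which 4 rose and 10 fell at 11 weeks (15.6%, beside 14.9% over all tested genes) and 6 rose and 7 fell at 19–21 weeks (14.4%, beside 9.12%). With at least 10 counts in every mouse, 7 passed at 19–21 weeks. C4a, a paralog of the complement C4 gene C4b, fell from 287 ± 81.2 to 50.8 ± 15.95 CPM at 11 weeks (log2 fold change -2.50, adjusted p = 6.88e-06 in edgeR). C4b itself had log2 fold changes of the other sign, 0.475 at 11 weeks and 0.861 at 19–21 weeks. How far reads of these paralogs can be told apart was not measured. C2, a complement component, fell at both ages (-1.03 and -0.46, adjusted p = 5.59e-06 and 0.0165 in edgeR), and Agpat1, which makes phosphatidic acid, rose at both (0.98 and 0.71, adjusted p = 7.16e-05 and 0.00311 in edgeR).

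**Figure D4:**
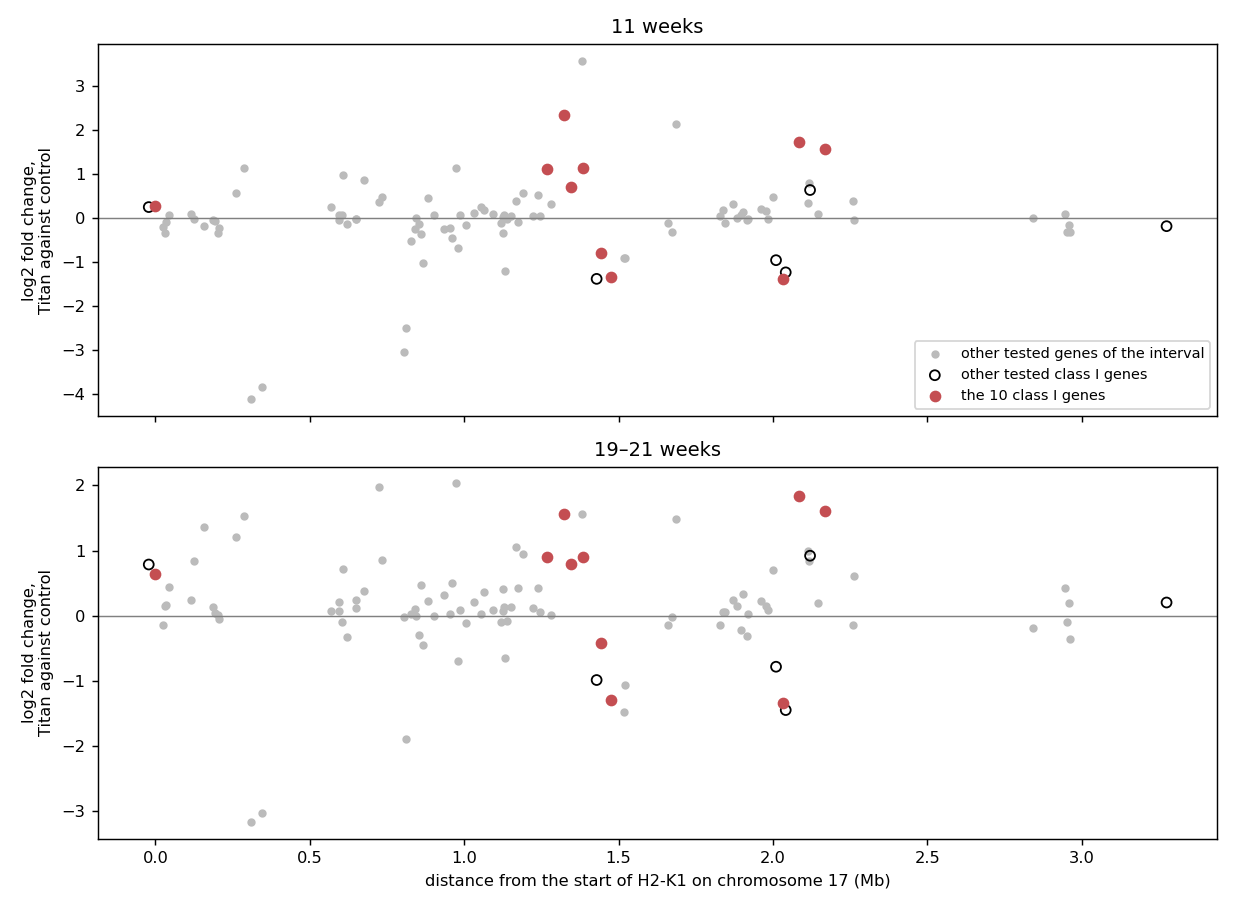
Log2 fold change (Titan against control) of each tested gene by its distance from the start of H2-K1 in Mb, at 11 weeks (top) and 19–21 weeks (bottom), for the 10 class I genes (red), other class I genes (open circles) and other genes of the interval (grey). H2-Q7 and H2-Q10 at 1.44 and 1.47 Mb lay below 0 beside H2-D1, H2-Q1, H2-Q2 and H2-Q4, which lay above 0.

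The machinery of class I molecules was tested as a list of 19 genes, and all 19 passed the filter. The list also holds the transcription regulators Nlrc5, Rfx5, Rfxank, Rfxap and Irf1, so its shares are not those of the loading machinery alone. At 11 weeks 2 rose and 3 fell (26.3%, beside 14.9% over all tested genes), and at 19–21 weeks 0 rose and 1 fell (5.26%, beside 9.12%). B2m, the shared light chain, stood at 1098 ± 118 CPM in controls of 11 weeks against 1030 ± 72.7 CPM in Titan mice (SD, n = 5; log2 fold change -0.09, SE 0.09, adjusted p = 0.54 in edgeR). In the older groups its log2 fold change was -0.10 (SE 0.09, adjusted p = 0.534 in edgeR). B2m thus showed no difference past the threshold where H2-D1 stood higher and H2-Q10 lower.

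Neither of the peptide transporter genes passed the test at either age. Tap1 had log2 fold changes of -0.08 and 0.04 and Tap2 of -0.24 and -0.05 (adjusted p from 0.268 to 0.898 in edgeR). The immunoproteasome genes Psmb8 (-0.35 and 0.02) and Psmb9 (-0.05 and 0.14) and tapasin (Tapbp, -0.27 and -0.17) did not pass either (adjusted p from 0.131 to 0.976 in edgeR). The same held for Nlrc5, the class I transactivator (-0.23 and 0.19, adjusted p = 0.68 and 0.743), and Irf1 (-0.12 and -0.07, adjusted p = 0.804 and 0.892).

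Those that passed at 11 weeks included Rfxank, a subunit of the RFX complex that binds MHC promoters. It fell from 22.2 ± 5.95 to 8.21 ± 0.67 CPM (log2 fold change -1.44, adjusted p = 2.94e-06 in edgeR). Rfxank also fell at 19–21 weeks (-0.87, adjusted p = 0.0011 in edgeR), as the only call of the list at that age. Rfx5, of the same complex, rose at 11 weeks (0.514, adjusted p = 0.00747 in edgeR) and did not pass at 19–21 weeks (0.327, adjusted p = 0.121 in edgeR). Rfxap, also of that complex, did not pass at either age (-0.014 and 0.025, adjusted p = 0.963 and 0.9335 in edgeR). Calr and Pdia3, chaperones of the loading complex that also fold many other proteins, fell at 11 weeks (-0.41 and -0.45, adjusted p = 0.00479 and 0.00129 in edgeR). Tapbpl, a peptide editor, rose at 11 weeks (0.50, adjusted p = 0.00197 in edgeR).

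Class II genes lie in the same complex and mark antigen-presenting cells. They were tested as a list together with Cd74 and Ciita, which lie outside the complex on other chromosomes. Of the 10 genes of this list, 7 passed the filter, Cd74 and Ciita among them. Of these, 1 rose and 1 fell at each age (28.6% beside 14.9% and 9.12%). The median log2 fold change of these 7 was 0.48 at 11 weeks and 0.88 at 19–21 weeks. H2-Eb1 alone was below 0 at 19–21 weeks. H2-Ab1, H2-DMa, H2-DMb1, Cd74 and Ciita were then at 0.77 to 1.36 and did not pass (adjusted p from 0.0557 to 0.152 in edgeR). At 11 weeks H2-DMa (-0.02) and H2-DMb1 (-0.18) were below 0 too. H2-Aa rose (log2 fold changes 1.14 and 1.54, adjusted p = 0.0258 and 0.00686 in edgeR) and H2-Eb1 fell (-4.13 and -3.17, adjusted p = 4.49e-05 and 0.00069 in edgeR), from at most 140 reads per control mouse to at most 9 per Titan mouse. Without Titan mice 1 and 2, H2-Aa no longer passed at 19–21 weeks. H2-Aa no longer passed at 11 weeks without control mouse 1 or 5 or Titan mouse 4. H2-Ea-ps, next to H2-Eb1 and named after its values were seen, stood at 5.98 ± 3.83 CPM in controls of 11 weeks against 0.45 ± 0.31 CPM in Titan mice.

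Class I-like genes outside the complex gave 1 call at each age among 7 that passed the filter of 9 listed. This was 14.3%, beside 14.9% over all tested genes at 11 weeks and 9.12% at 19–21 weeks. Fcgrt, the neonatal Fc receptor that carries IgG and albumin, rose at 11 weeks (0.28, adjusted p = 0.0245 in edgeR), and Cd1d1, which presents lipids, fell at 19–21 weeks (-0.40, adjusted p = 0.0417 in edgeR). Both calls rested on single mice: that of Fcgrt was lost without control mouse 1 or 4 or Titan mouse 1 or 5, and that of Cd1d1 without control mouse 1, 3 or 5, older Titan mouse 1, 3, 4 or 5, or younger Titan mouse 5. Of 30 interferon-stimulated genes, 0 rose and 1 fell at 11 weeks (3.33%, beside 14.9%) and 2 rose and 1 fell at 19–21 weeks (10%, beside 9.12%). The call at 11 weeks was lost without control mouse 5 or Titan mouse 1. Those called were Bst2, an antiviral membrane protein, at 11 weeks (-0.40, adjusted p = 0.0196 in edgeR), and Stat2 (0.60), Zbp1 (1.06) and Ifih1 (-0.55) at 19–21 weeks (adjusted p from 8.71e-05 to 0.0272 in edgeR). The call of Zbp1 was lost without control mouse 1 or 3 or Titan mouse 4.

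In bulk liver, fewer cells of a type and less RNA per cell cannot be told apart. The 26 leukocyte and Kupffer cell markers summed to 205 to 277 CPM in 11-week-old controls and 197 to 288 CPM in Titan mice, and to 142 to 301 and 142 to 404 CPM at 19–21 weeks. Of these markers 13 passed the filter, with 2 called at 11 weeks (15.4%, beside 14.9% over all tested genes). At 19–21 weeks 1 was called (7.69%, beside 9.12%). Cd3e rose at both ages (log2 fold changes 3.94 and 2.02, adjusted p = 0.000224 and 0.0348 in edgeR) while Cd4 fell at 11 weeks (-1.71, adjusted p = 0.0075 in edgeR), both genes of T cells. The call of Cd3e at 19–21 weeks was lost with any of 9 of the 10 mice of that age left out, control mouse 4 being the exception. Cd8b1, Klrb1c and Cd8a, which mark CD8 T cells and natural killer cells, were near 0 in both lines, with at most 1, 4 and 5 reads in any mouse, and Cd8b1 and Klrb1c were at 0 in all 5 Titan mice of 11 weeks. Ptprc, on all leukocytes, and Clec4f, on Kupffer cells, did not pass (Ptprc 0.06 and 0.24, Clec4f -0.33 and -0.41, adjusted p from 0.227 to 0.907 in edgeR).

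The hepatocyte marker Alb had log2 fold changes of 0.14 and 0.07 (adjusted p = 0.542 and 0.785 in edgeR). The 5 hepatocyte markers found by symbol, of 6 listed, summed to 73200 to 91770 CPM in 11-week-old controls and 77960 to 96790 CPM in Titan mice, so the libraries carried the labelled tissue. Of them 3 fell at 11 weeks (60%, beside 14.9% over all tested genes) and 0 at 19–21 weeks. The call of Serpina1a was lost with any of 5 single mice left out, with no filter and in separate fits, that of Apoa1 in separate fits, and that of Cyp2e1 in no alternative. Of 5 endothelial markers, which summed to 264.5 to 303 CPM in 11-week-old controls and 220 to 263 CPM in Titan mice, 2 fell at 11 weeks (40%) and 1 at 19–21 weeks (20%, beside 9.12%). The call of Pecam1 at 11 weeks was lost with any of 11 single mice left out and in 5 other settings, that of Kdr with any of 5 single mice left out and with no filter, and that of Lyve1 at 19–21 weeks in no alternative that tested it. The part of these cell types in the class I values was not tested.

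Age made no difference to the 10 genes that passed the test. The age comparisons were treated as not used in the choice of the list, which is not stated, and they rest on the same mice. Between 19–21 and 11 weeks, 0 of 10 passed in Titan mice and 0 of 10 in control mice (edgeR quasi-likelihood test, Benjamini-Hochberg adjustment over 13783 genes), with 0 at an unadjusted p under 0.05 and 0 by DESeq2 in each line. Over all genes 1.25% passed in Titan mice and 0.0871% in controls with edgeR, 15.6% and 6.15% had an unadjusted p under 0.05, and 3.08% and 0.363% passed with DESeq2.

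The gene nearest to the threshold was H2-Q4 in controls, with a log2 fold change of 0.44 (SE 0.21, adjusted p = 0.808 in edgeR). In Titan mice it was H2-Q7, at 0.89 (SE 0.61, adjusted p = 0.516 in edgeR). H2-Q10 had log2 fold changes of -0.11 (SE 0.19) in Titan mice and -0.16 (SE 0.19) in controls between the ages, and H2-D1 of 0.20 (SE 0.21) and 0.41 (SE 0.21).

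In these genes control mice differed among themselves more than Titan mice did. With the ages pooled, the SD of log2 CPM within groups was larger in controls for 10 of 10 genes, with a ratio of controls to Titan mice from 1.695 in H2-Q10 to 5.05 in H2-D1 (median 3.07). Over all tested genes the median ratio was 1.01, and 51.4% had a larger SD in controls. The ratio of H2-D1 exceeded that of 99.6% of tested genes and the ratio of H2-Q10 that of 88.4%. At 11 weeks alone the SD was larger in controls for 9 of 10 genes (median ratio 1.82, beside 1.10 over all tested genes), the exception being H2-Q2 (0.15 in controls and 0.18 in Titan mice). At 19–21 weeks it was larger for 10 of 10 (median ratio 3.79, beside 0.97). Unlike the medians, the ratio was larger at 11 than at 19–21 weeks for H2-Q10 (3.97 and 1.23), H2-Bl (5.32 and 3.53) and H2-Q7 (3.675 and 2.80). The pooled ratio of H2-D1 rested on the older controls, with an SD of 0.70 against 0.12 in Titan mice at 19–21 weeks and 0.13 against 0.07 at 11 weeks. These are descriptions over 10 mice per line, and the genes are neighbours on 1 chromosome. Low counts widen the SD of log2 CPM, and some genes had fewer reads in controls. Reads per mouse were 4 to 27 in controls against 22 to 178 in Titan mice for H2-Q1, and 12 to 47 against 55 to 153 for H2-Bl. H2-Q7, H2-Q10 and H2-T23 averaged higher CPM in controls instead. The part of read depth in the ratios was not tested.

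**Figure D5:**
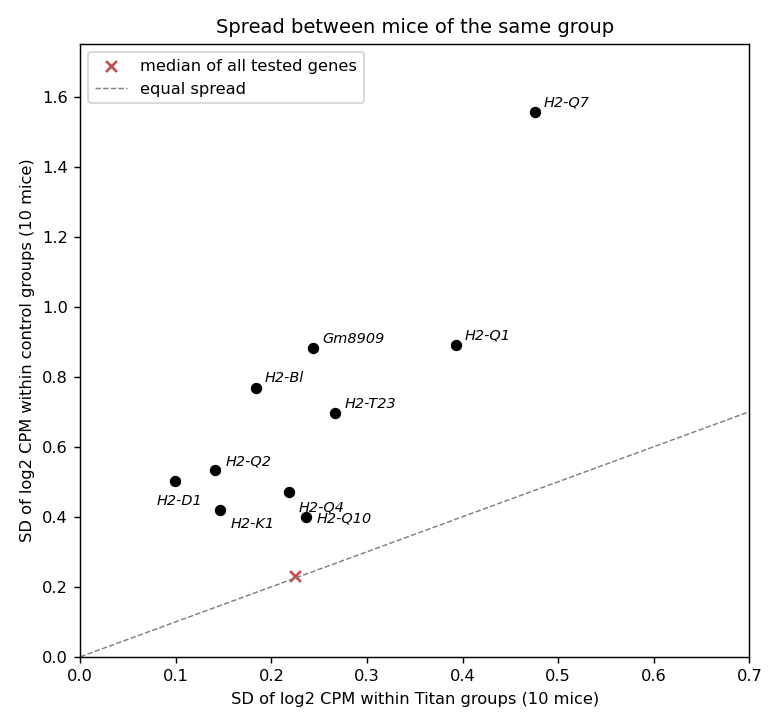
SD of log2 CPM within groups, ages pooled, in control mice (vertical) against Titan mice (horizontal) for the 10 class I genes, with the line of equal spread and the median of all tested genes (cross). All 10 genes lay above the line, with H2-Q7 highest at 1.56 in controls and 0.48 in Titan mice.

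Within the 10 control mice, after group means were removed, some genes varied together. H2-D1 and H2-Q4 had a Pearson correlation of 0.92, H2-Q1 and Gm8909 of 0.83, H2-D1 and Gm8909 of 0.81, and H2-Q7 and H2-Q10 of 0.74. H2-Q10 had correlations of -0.77 with H2-Bl and -0.69 with Gm8909. In the 10 Titan mice the first 3 pairs had values of 0.66, 0.19 and 0.67, and the 3 pairs with H2-Q10 had the opposite sign, at -0.19 for H2-Q7, 0.21 for H2-Bl and 0.10 for Gm8909. The points share library depth and the sum to which CPM is scaled, and 19–21-week-old control mouse 4, with the highest H2-D1 and an H2-K1 share of 35% of the classical pair, is 1 of 10.

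Over all 20 mice, with group means removed, the tested genes most like the mean log2 CPM of the 10 were Mta1 (Pearson correlation 0.83), Atp6v0a1 (0.81), Pfas (0.79), Naglu (0.78) and Coro7 (0.78). In the 10 Titan mice alone these values were 0.10, 0.38, 0.68, 0.45 and 0.33. None of these genes lies on chromosome 17. They were picked as the highest of 13783 tested genes, so high values follow in part from the choice, and no relation was tested.

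How far reads can be assigned to 1 gene was measured on the GENCODE M21 transcripts. Of the distinct stretches of 100 bases in each gene, 84.7% (Gm8909) to 99.3% (H2-Bl) occurred in no other gene, and of those of 50 bases 63.6% (H2-Q4) to 90.5% (H2-Bl). H2-Q10 and H2-Q7 shared the most within the set, 5.81% of the 100-base stretches of H2-Q10 and 5.56% of those of H2-Q7. H2-Q4 shared 11.8% with Gm11131 and Gm8909 13.1% with Gm20478, genes on the opposite strand that strand-specific counting keeps apart. H2-K1 and H2-D1 had 99.0% and 96.4% of their 100-base stretches to themselves. These shares hold for the reference sequence, and how many reads of other haplotypes failed to map in either line was not tested.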

How the data were processed

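Liver RNA of 20 male mice was depleted of rRNA and sequenced from directional libraries. Per the labels and the methods, the authors mapped reads to GRCm38 with STAR 2.5.3a, removed reads placed at several positions or on several genes, and deposited raw counts per gene without normalization, over both strands and per strand. Column 4, which held 96.83% to 97.55% of strand-assigned reads, was used. Gene names came from GENCODE M21 (55480 of 55573 IDs). Following the methods of the study, 1562 Y-linked and 109 histone genes were removed.

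Groups follow the titles. Counts were fitted with edgeR 4.0.16 in R 4.3.3 (filterByExpr, 13783 genes kept, TMM, quasi-likelihood test, 1 fit of 4 groups, Benjamini-Hochberg adjustment, threshold 0.05, two-sided). CPM use the TMM-scaled library size. Groups overlap where the range of one reaches that of the other. Whether the 5 mice of a group shared a litter or cage is not given in the sources used here. The gene set and all lists were chosen with earlier results of these data known. The genes named are the 10, every tested class I gene of chromosome 17, 14 set genes of antigen presentation and cell types, at most 4 further genes of each list by smallest p, and the 5 most alike genes. Rfx5, Rfxap, C4b, Ciita, H2-Ab1, H2-DMa and H2-DMb1 were named in addition, after their values were seen. One set gene is not reported here.

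Alternatives were DESeq2 1.42.0, RLE scaling, counts over both strands, no filter, a minimum of 10 counts per mouse, separate fits for each comparison, the replicate number as a block, and each mouse left out. Leaving out Titan mice 1 and 2 of 19–21 weeks was added after seeing the data. The steps were tested on simulated data.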

Additional observations from a re-analysis of the deposited data

Results flagged for a closer look

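Of 40 groups of 5 mice (10 genes in 4 groups), 1 held a mouse apart from the others by Dixon's limit of 0.71 for the gap over the range, where chance sets apart about 1 in 20. This was H2-T23 in 19–21-week-old Titan mouse 1, at 12.8 CPM, while the other mice of the group lay between 10.9 and 11.4 CPM (gap over range 0.759). The same mouse had the highest summed reads of the class II list (153 CPM) and of the leukocyte and Kupffer cell markers (404 CPM), whose part in the value was not tested. Among 92 tested genes of the lists, 0 had a line difference that changed between the ages past the threshold (edgeR, smallest adjusted p 0.0905). Of these 92, 10 had an unadjusted p under 0.05. The 92 leave out the list of other genes of the MHC interval, apart from genes that another list also holds.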

How the results depend on the processing

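Directions of the 10 genes between the lines held in every alternative that tested them (H2-Q1 and H2-Q7 lay under at least 10 counts in every mouse) and with each mouse left out. Of them, 8 were without overlap at 11 weeks in all 8 alternatives and 8 to 9 with 1 mouse left out, and 4 to 5 and 4 to 7 (main 5) at 19–21 weeks. Between the ages, 0 passed in every setting. Same-numbered mice shared only a number (correlations -0.144 to 0.175, 4 of 30 pairs over 0.1). With the replicate number as a block, the class I-like list at 19–21 weeks moved from 1 call to 0 and the leukocyte list from 1 to 0, and no other count moved by over 1.5 times. Small list counts moved in other settings. The leukocyte list at 19–21 weeks gave 0 over both strands, in separate fits, with at least 10 counts and without Titan mice 1 and 2, and 0 at 11 weeks with at least 10 counts (main 2). Class I-like genes gave 0 at 11 weeks with no filter and in separate fits, and at 19–21 weeks 0 with at least 10 counts, 0 in separate fits and 2 with DESeq2. Class II gave 1 at each age with at least 10 counts, and at 19–21 weeks 1 without Titan mice 1 and 2 and 4 with DESeq2. Interferon-stimulated genes at 11 weeks gave 2 in separate fits and 2 with DESeq2. Other genes of the interval gave 7 (main 13) at 19–21 weeks with at least 10 counts, where fewer genes were tested. With each mouse left out, calls ran from 1 to 2 and 2 to 4 for class II at 11 and 19–21 weeks, from 0 to 2 at both ages for class I-like genes, from 0 to 2 for interferon-stimulated genes at 11 weeks, from 0 to 1 for the leukocyte list and from 2 to 5 for other class I genes at 19–21 weeks. The causes were not tested. Depth limits H2-Q1, with 4 to 27 reads per control mouse, and H2-Q7, with 7 to 129.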
